A study of Mus musculus with 12 samples.

Results

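Genes of DNA repair and of the damage checkpoints were followed across 3 groups of regulatory T cells (Treg) from mouse spleen, profiled on Affymetrix expression arrays with 4 biological replicates per group. The set was a list of 35 gene symbols taken for their function, chosen with earlier results of these data known. Each gene was represented by its probe set with the highest mean over the 12 arrays. Of the 35 genes, 30 had a probe set annotated to them alone, out of 22180 genes measured in that way. The 30 fall into 26 genes that act at replication forks or in repair linked to replication, and 4 genes of signalling by the kinase ATM and by p53. Rad54b and Fanca share their probe sets with a neighbouring gene and are named without values, and Trp53, Xrcc2 and Rbbp8 are not analysed here. All levels below are RMA values on the log2 scale, so a difference of 1 is a doubling. Levels are compared between groups within a gene and never between genes.

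Stalled or broken replication forks are repaired by homologous recombination, in which resected DNA ends, with the help of Brca1, Palb2 and Brca2, copy the sister chromatid. The Fanconi anaemia pathway removes crosslinks between the strands ahead of a fork and hands its intermediates to the same recombination proteins. Single-stranded DNA at a fork activates the kinase Atr, which signals through Topbp1, Claspin (Clspn) and Chek1, whereas a double-strand break activates Atm, which signals through Chek2 and, by way of p53, switches on genes for cell cycle arrest and cell death. Many genes of the first kind are transcribed periodically in dividing cells, with their peak near the start of S phase. T cells that divide after antigen contact carry high levels of such transcripts.

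All animals were DEREG mice, whose Foxp3-expressing cells bear a receptor for diphtheria toxin joined to a fluorescent protein, and all were made allergic to ovalbumin. The iTreg group came from mice given intravenous immunoglobulin (IVIg, pooled IgG) at 2 g/kg after depletion of their own Treg with diphtheria toxin (DTx, 40 ng/g). For e_iTreg the mice had IVIg at the same dose and no DTx, and the labels call these cells mixed, endogenous and induced. For eTreg the mice had the control protein, human serum albumin, at 2 g/kg and no DTx. A growth protocol worded alike for all samples mentions DTx before either protein, so the absence of DTx in the last 2 groups rests on the series design. No group with DTx and albumin is analysed here, so IVIg and depletion changed together between iTreg and eTreg and cannot be told apart in that comparison. Ages and sexes were not given in the labels, and the cells that survive DTx were not described in them.

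The Treg label held on every array. The lineage factor Foxp3 lay between 11.84 and 12.56, and 0 of 8 Treg and T cell markers passed the threshold in either iTreg comparison. Some arrays stood apart in markers of other spleen cells. The mean of 13 B cell markers was 6.27 in e_iTreg replicate 4 and 6.26 and 6.29 in eTreg replicates 3 and 4, against 7.50 to 8.44 in the other 9 arrays. Plasma cell markers averaged 9.37 in iTreg replicate 4, and 7.54 to 7.91 in the other iTreg arrays, 7.10 to 7.55 in e_iTreg and 7.0 to 7.41 in eTreg. Markers of monocytes, macrophages and dendritic cells averaged 7.49 in that same iTreg array and 6.10 to 6.75 in the other 11. Xist, the RNA of the inactive X chromosome, was at 5.82 in e_iTreg replicate 4 and at 10.26 to 11.37 in the other 11 arrays. The Y-linked Eif2s3y was highest in that same array, at 9.72, and lowest in eTreg replicate 3 (4.33) and iTreg replicate 4 (4.47). In the remaining arrays it lay between 7.12 and 8.40, so most arrays held both transcripts at high levels. Counts of genes are therefore given below with and without these arrays.

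Replication-linked repair genes were higher in iTreg, and the ATM and p53 genes did not pass the test. In iTreg minus eTreg, 15 of the 30 genes passed an adjusted p of 0.05 (limma, Benjamini-Hochberg over 23521 probe sets), all of them higher in iTreg, while 9.99% of all probe sets tested were called (5.36% higher and 4.63% lower). In iTreg minus e_iTreg, 17 of the 30 genes passed, again all higher, beside 11.2% of probe sets called (6.49% higher and 4.75% lower). In e_iTreg minus eTreg none of the 30 passed, and 0% of probe sets did (1649 probe sets had an unadjusted p under 0.05). Every called gene was one of the 26 replication-linked genes, and 0 of the 4 ATM and p53 genes passed in any of the 3 comparisons. Bulk arrays cannot separate fewer cells of a type from less RNA per cell, so each difference may reflect either.

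The median difference of the 26 replication-linked genes was 0.60 in iTreg minus eTreg, 0.72 in iTreg minus e_iTreg and -0.03 in e_iTreg minus eTreg. For the 4 ATM and p53 genes the medians were -0.04, 0.11 and -0.13 in the same order, and over all probe sets tested they were -0.01, -0.07 and 0.03. The sizes of the 2 classes overlapped, with Chek2 of the second class at 0.59 against eTreg and Palb2, Mus81 and Atr of the first at 0.17, 0.05 and -0.24, and the classes were not tested against each other. In 13 of the 30 genes all 4 iTreg arrays lay above all 8 other arrays, a pattern found in 5.08% of all probe sets. The 4 iTreg arrays lay above the 4 eTreg arrays in 13 genes (6.9% of probe sets) and above the 4 e_iTreg arrays in 16 genes (7.57% of probe sets).

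**Figure D1:**
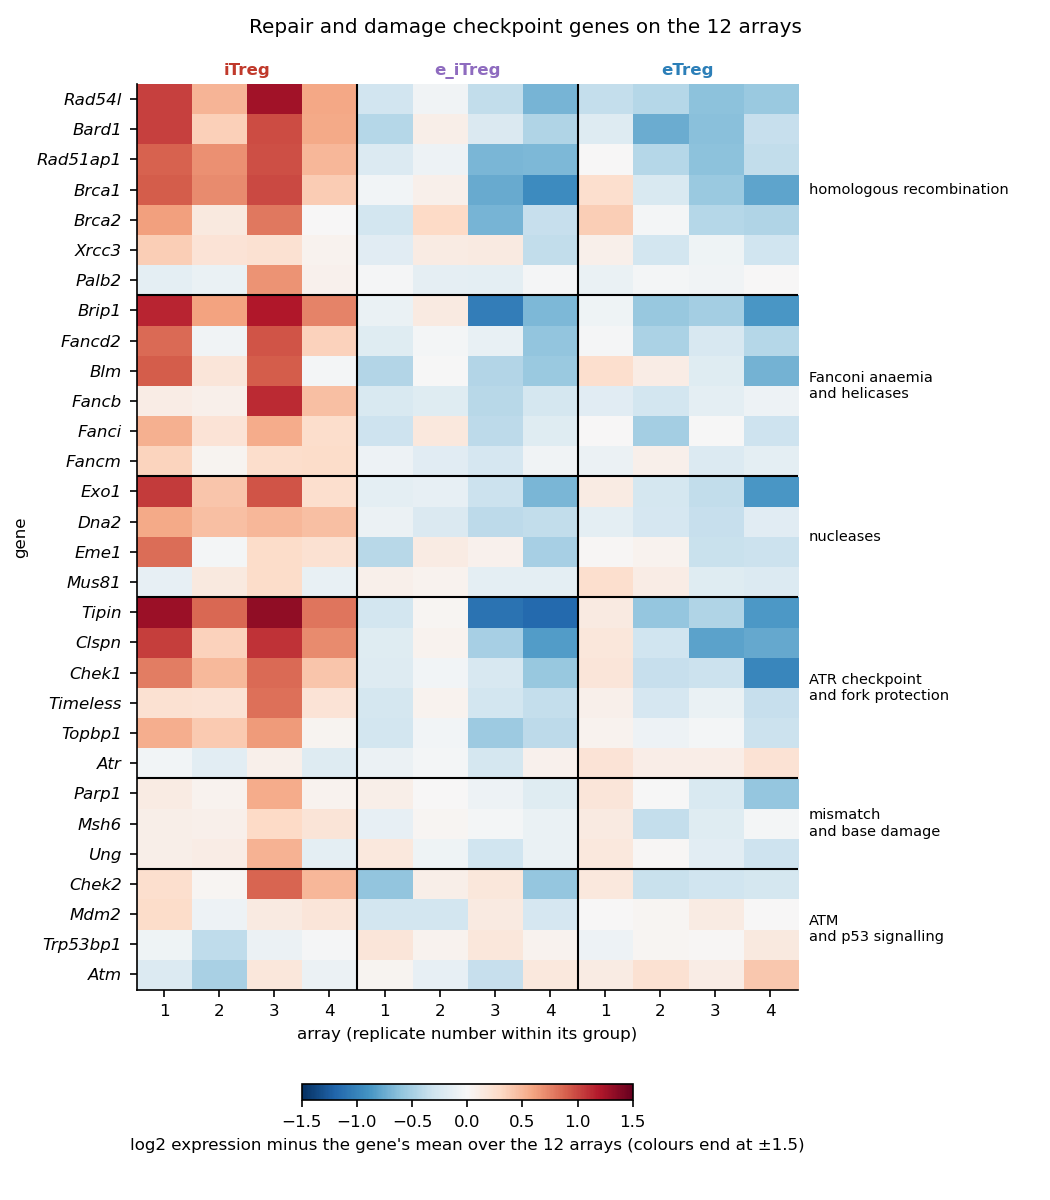
Log2 expression of the 30 measured genes (rows, grouped by role) on the 12 arrays (columns: iTreg, e_iTreg, eTreg, replicates 1 to 4 each), with each gene's mean over the 12 arrays subtracted and colours ending at ±1.5. Red fills the 4 iTreg columns for most genes of the upper 4 blocks, iTreg replicates 1 and 3 are the darkest, and the rows of Atr, Mus81, Mdm2, Trp53bp1 and Atm stay pale.

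Among the homologous recombination genes, 4 of 7 measured rose in iTreg against each of the other groups: Rad54l, Bard1, Rad51ap1 and Brca1. Rad54l, a motor protein of strand exchange, stood at 7.40, 6.87, 7.62 and 6.94 in the iTreg arrays, against 6.07, 6.31, 5.99 and 5.67 in the e_iTreg arrays and 6.002, 5.94, 5.75 and 5.81 in the eTreg arrays. It was 1.33 ± 0.17 (SE) log2 units higher in iTreg than in eTreg, or 2.52-fold (limma, adjusted p = 0.000605), and 1.20 ± 0.17 higher than in e_iTreg (adjusted p = 0.00099). Every iTreg array of Rad54l exceeded all 8 others.

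Brca1 is the scaffold and ubiquitin ligase that promotes resection of broken ends, and Bard1 is its obligate partner. Bard1 read 7.63, 6.95, 7.58 and 7.17 in the iTreg arrays, against 6.17, 6.68, 6.37 and 6.14 in the e_iTreg arrays and 6.40, 5.85, 5.97 and 6.25 in the eTreg arrays, a difference of 1.21 ± 0.17 against eTreg (2.32-fold, limma adjusted p = 0.00105) and 0.99 ± 0.17 against e_iTreg (adjusted p = 0.0027). Brca1 read 7.06, 6.87, 7.15 and 6.54 in the iTreg arrays, against 6.12, 6.24, 5.40 and 5.22 in the e_iTreg arrays and 6.41, 5.93, 5.60 and 5.36 in the eTreg arrays. Its difference was 1.08 ± 0.25 against eTreg (2.12-fold, limma adjusted p = 0.0113) and 1.16 ± 0.25 against e_iTreg (adjusted p = 0.00752). Neither partner overlapped between iTreg and the other groups, but Brca1 varied more inside the 2 groups without DTx (SD 0.51 in e_iTreg and 0.45 in eTreg) than Bard1 did (SD 0.25 in each).

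Rad51ap1, which stimulates strand invasion, had values of 7.93, 7.73, 8.01 and 7.55 in the iTreg arrays, against 6.84, 6.96, 6.36 and 6.37 in the e_iTreg arrays and 7.05, 6.61, 6.43 and 6.68 in the eTreg arrays. The iTreg arrays did not overlap the others, and the difference was 1.11 ± 0.16 against eTreg (2.16-fold, limma adjusted p = 0.00121) and 1.17 ± 0.16 against e_iTreg (adjusted p = 0.00099). The other 3 genes of the group did not pass. Brca2, which acts on resected single-stranded DNA, averaged 7.30 ± 0.37 in iTreg, 6.65 ± 0.41 in e_iTreg and 6.78 ± 0.39 in eTreg (SD, n = 4 each), with a difference from eTreg of 0.52 (95% interval 0.03 to 1.01, limma adjusted p = 0.193). Xrcc3, which acts in strand exchange and its resolution, differed by 0.36 (0.08 to 0.63, adjusted p = 0.103). Palb2, the bridge between Brca1 and Brca2, differed by 0.17 (-0.14 to 0.48, adjusted p = 0.584). Its iTreg values were 6.33, 6.38, 7.14 and 6.54, and replicates 3 and 4 lay above every array of the other groups, replicate 4 only slightly. Against eTreg a doubling in iTreg lies outside the intervals of Xrcc3 and Palb2 and at the edge of that of Brca2. Against e_iTreg it lies outside those of Xrcc3 and Palb2 too, but inside that of Brca2 (0.16 to 1.13).

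In the Fanconi anaemia and helicase group, 4 of 6 measured genes rose against eTreg and 6 of 6 against e_iTreg. These counts depended on single arrays: 2 genes passed against eTreg without iTreg replicate 1, iTreg replicate 3, eTreg replicate 2 or eTreg replicate 4, and 2 against e_iTreg without iTreg replicate 1, iTreg replicate 3 or e_iTreg replicate 3. The helicase Brip1, a partner of Brca1 also known as FANCJ, changed most, with 7.68, 7.14, 7.74 and 7.28 in the iTreg arrays, against 6.43, 6.67, 5.50 and 5.87 in the e_iTreg arrays and 6.48, 5.96, 6.03 and 5.66 in the eTreg arrays. That is 1.42 ± 0.23 above eTreg (2.68-fold, limma adjusted p = 0.002) and 1.34 ± 0.23 above e_iTreg (adjusted p = 0.00276), with no overlap of iTreg and the other 8 arrays. Fancd2 and Fanci form the clamp that is ubiquitinated at a crosslink. For Fancd2 the arrays gave 7.99, 7.09, 8.08 and 7.48 in the iTreg arrays, against 6.96, 7.11, 7.03 and 6.55 in the e_iTreg arrays and 7.12, 6.67, 6.90 and 6.71 in the eTreg arrays, a difference of 0.81 ± 0.20 from eTreg (1.76-fold, limma adjusted p = 0.0154) and of 0.75 ± 0.20 from e_iTreg (adjusted p = 0.0226). Here the groups overlapped, because iTreg replicate 2 lay below the highest array of each other group.

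Fanci gave 7.41, 7.09, 7.44 and 7.15 in the iTreg arrays, against 6.58, 7.05, 6.49 and 6.71 in the e_iTreg arrays and 6.89, 6.38, 6.88 and 6.57 in the eTreg arrays, which did not overlap. The difference was 0.59 ± 0.15 from eTreg (1.51-fold, limma adjusted p = 0.0179) and 0.57 ± 0.15 from e_iTreg (adjusted p = 0.0217). Fancb, a subunit of the core complex that ubiquitinates that clamp, gave 5.46, 5.42, 6.46 and 5.80 in the iTreg arrays, against 5.11, 5.16, 4.93 and 5.08 in the e_iTreg arrays and 5.18, 5.07, 5.21 and 5.27 in the eTreg arrays. Its difference of 0.60 ± 0.18 from eTreg (1.52-fold, limma adjusted p = 0.0419) and 0.72 ± 0.18 from e_iTreg (adjusted p = 0.0174) rested to a large part on iTreg replicate 3: without that array the differences were 0.38 and 0.49, and the comparison with eTreg had an adjusted p of 0.0589. The call against eTreg held in only 2 of the 12 fits that each left out 1 array. Fancb was also dim, and a filter for probe sets with a mean above log2 6 removed it.

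Fancm and Blm passed against e_iTreg and not against eTreg. Fancm, the translocase that anchors the core complex to DNA, had 7.42, 7.13, 7.35 and 7.36 in the iTreg arrays, against 7.01, 6.92, 6.84 and 7.04 in the e_iTreg arrays and 7.01, 7.17, 6.89 and 6.95 in the eTreg arrays, with differences of 0.31 ± 0.10 from eTreg (limma adjusted p = 0.0569) and 0.36 ± 0.10 from e_iTreg (adjusted p = 0.0269). Blm, the RecQ helicase that dissolves recombination intermediates, had 8.97, 8.24, 8.97 and 8.02 in the iTreg arrays, against 7.62, 8.05, 7.62 and 7.51 in the e_iTreg arrays and 8.31, 8.17, 7.87 and 7.35 in the eTreg arrays, with differences of 0.62 ± 0.23 (limma adjusted p = 0.118) and 0.85 ± 0.23 (adjusted p = 0.0298). The difference between the 2 comparisons is e_iTreg minus eTreg itself, and it was -0.05 for Fancm (limma adjusted p = 0.905) and -0.22 for Blm (adjusted p = 0.809), so neither gene was shown to respond differently in them. In both genes iTreg overlapped eTreg, and in Blm it also overlapped e_iTreg.

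Among the nucleases, the 2 that resect DNA ends rose and the 2 subunits of the junction-cutting Mus81-Eme1 enzyme did not pass. Dna2, a nuclease and helicase of resection and of Okazaki fragment processing, had the tightest replicates of the whole set, with 7.53, 7.41, 7.46 and 7.40 in the iTreg arrays, against 6.87, 6.75, 6.57 and 6.59 in the e_iTreg arrays and 6.81, 6.71, 6.61 and 6.79 in the eTreg arrays. The difference was 0.72 ± 0.09 from eTreg (1.65-fold, limma adjusted p = 0.000624) and 0.76 ± 0.09 from e_iTreg (adjusted p = 0.000721), and the lowest iTreg array, at 7.40, stood well clear of the highest of the other 8, at 6.87. Exo1, a 5′ exonuclease of resection and mismatch repair, had 8.39, 7.76, 8.29 and 7.60 in the iTreg arrays, against 7.20, 7.22, 7.02 and 6.66 in the e_iTreg arrays and 7.46, 7.08, 6.97 and 6.47 in the eTreg arrays. It differed by 1.01 ± 0.21 from eTreg (2.02-fold, limma adjusted p = 0.00709) and by 0.99 ± 0.21 from e_iTreg (adjusted p = 0.00824), also without overlap. Eme1 averaged 6.54 ± 0.36 in iTreg, 6.02 ± 0.32 in e_iTreg and 6.06 ± 0.21 in eTreg (SD, n = 4 each; difference from eTreg 0.48, limma adjusted p = 0.13). Mus81 averaged 8.32 ± 0.20, 8.23 ± 0.12 and 8.27 ± 0.23 in the same order, and its interval against eTreg of -0.22 to 0.32 leaves out a rise of 0.5.

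The Atr branch was split: 5 of its 6 genes, all of them partners or targets of the kinase, rose in iTreg against both groups, and Atr itself did not pass in any comparison. Against eTreg 3 of the 5 passed without any 1 of 6 arrays (iTreg replicates 1 and 3, e_iTreg replicate 1 and eTreg replicates 2, 3 and 4). Tipin and Timeless form the complex that holds polymerase and helicase together at a fork. Tipin had the largest difference of all 30 genes, with 8.63, 8.22, 8.68 and 8.16 in the iTreg arrays, against 7.07, 7.38, 6.24 and 6.19 in the e_iTreg arrays and 7.49, 6.77, 6.90 and 6.49 in the eTreg arrays. That amounted to 1.51 ± 0.26 over eTreg (2.85-fold, limma adjusted p = 0.00249) and 1.70 ± 0.26 over e_iTreg (3.25-fold, adjusted p = 0.00145), without overlap. Timeless gave 7.40, 7.39, 8.01 and 7.37 in the iTreg arrays, against 6.92, 7.23, 6.90 and 6.81 in the e_iTreg arrays and 7.25, 6.92, 7.07 and 6.83 in the eTreg arrays, a difference of 0.53 ± 0.15 from eTreg (1.44-fold, limma adjusted p = 0.0368) and 0.57 ± 0.15 from e_iTreg (adjusted p = 0.0226). The 2 partners thus differed in size, and Timeless owed part of its mean to iTreg replicate 3, without which the differences were 0.37 and 0.42 (adjusted p = 0.0923 and 0.0563).

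Clspn, the adaptor through which Atr phosphorylates Chek1, gave 7.98, 7.29, 8.03 and 7.65 in the iTreg arrays, against 6.76, 6.99, 6.44 and 6.10 in the e_iTreg arrays and 7.11, 6.64, 6.14 and 6.18 in the eTreg arrays. It was 1.22 ± 0.23 higher than in eTreg (2.33-fold, limma adjusted p = 0.00405) and 1.16 ± 0.23 higher than in e_iTreg (adjusted p = 0.00531). Chek1, the effector kinase of this branch, gave 8.42, 8.14, 8.49 and 8.07 in the iTreg arrays, against 7.45, 7.60, 7.41 and 7.08 in the e_iTreg arrays and 7.83, 7.30, 7.32 and 6.67 in the eTreg arrays, which is 0.999 ± 0.20 above eTreg (2-fold, limma adjusted p = 0.00485) and 0.89 ± 0.20 above e_iTreg (adjusted p = 0.00902). In both genes the 4 iTreg arrays lay above the other 8. Topbp1, the activator of Atr, gave 10.07, 9.91, 10.15 and 9.56 in the iTreg arrays, against 9.24, 9.48, 8.97 and 9.13 in the e_iTreg arrays and 9.58, 9.45, 9.48 and 9.19 in the eTreg arrays, a difference of 0.50 ± 0.14 from eTreg (1.41-fold, limma adjusted p = 0.0368) and 0.72 ± 0.14 from e_iTreg (adjusted p = 0.00509), and iTreg replicate 4 fell inside the range of eTreg.

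Atr itself read 7.42, 7.31, 7.55 and 7.28 in the iTreg arrays, against 7.38, 7.44, 7.21 and 7.54 in the e_iTreg arrays and 7.68, 7.57, 7.57 and 7.68 in the eTreg arrays. In this gene all 4 iTreg and all 4 e_iTreg arrays lay below all 4 eTreg arrays, by -0.24 ± 0.10 (95% interval -0.45 to -0.03, limma adjusted p = 0.16) for iTreg and by -0.24 ± 0.10 (-0.45 to -0.03, adjusted p = 0.704) for e_iTreg, neither of which passed. Over all probe sets 7.82% had every iTreg array below every eTreg array, and 1.66% had every e_iTreg array below every eTreg array. A dimmer second probe set of Atr (mean 5.33 against 7.47) gave a difference of -0.04 in iTreg minus eTreg (limma adjusted p = 0.931) and of 0.10 in iTreg minus e_iTreg (adjusted p = 0.679). The interval of the main probe set in iTreg minus e_iTreg, -0.21 to 0.21, leaves out a rise of the size seen in any of the 5 other genes of the branch.

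The 3 genes that act on mismatches and damaged bases did not pass in any comparison. Msh6, a subunit of a mismatch recognition complex, was 0.28 higher in iTreg than in eTreg (95% interval 0.05 to 0.51, limma adjusted p = 0.14). Parp1, the sensor of strand breaks, was 0.35 higher (0.03 to 0.68, adjusted p = 0.187), and Ung, which removes uracil from DNA, 0.22 higher (-0.09 to 0.53, adjusted p = 0.447). All 3 point estimates were above 0 in both iTreg comparisons.

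**Figure D2:**
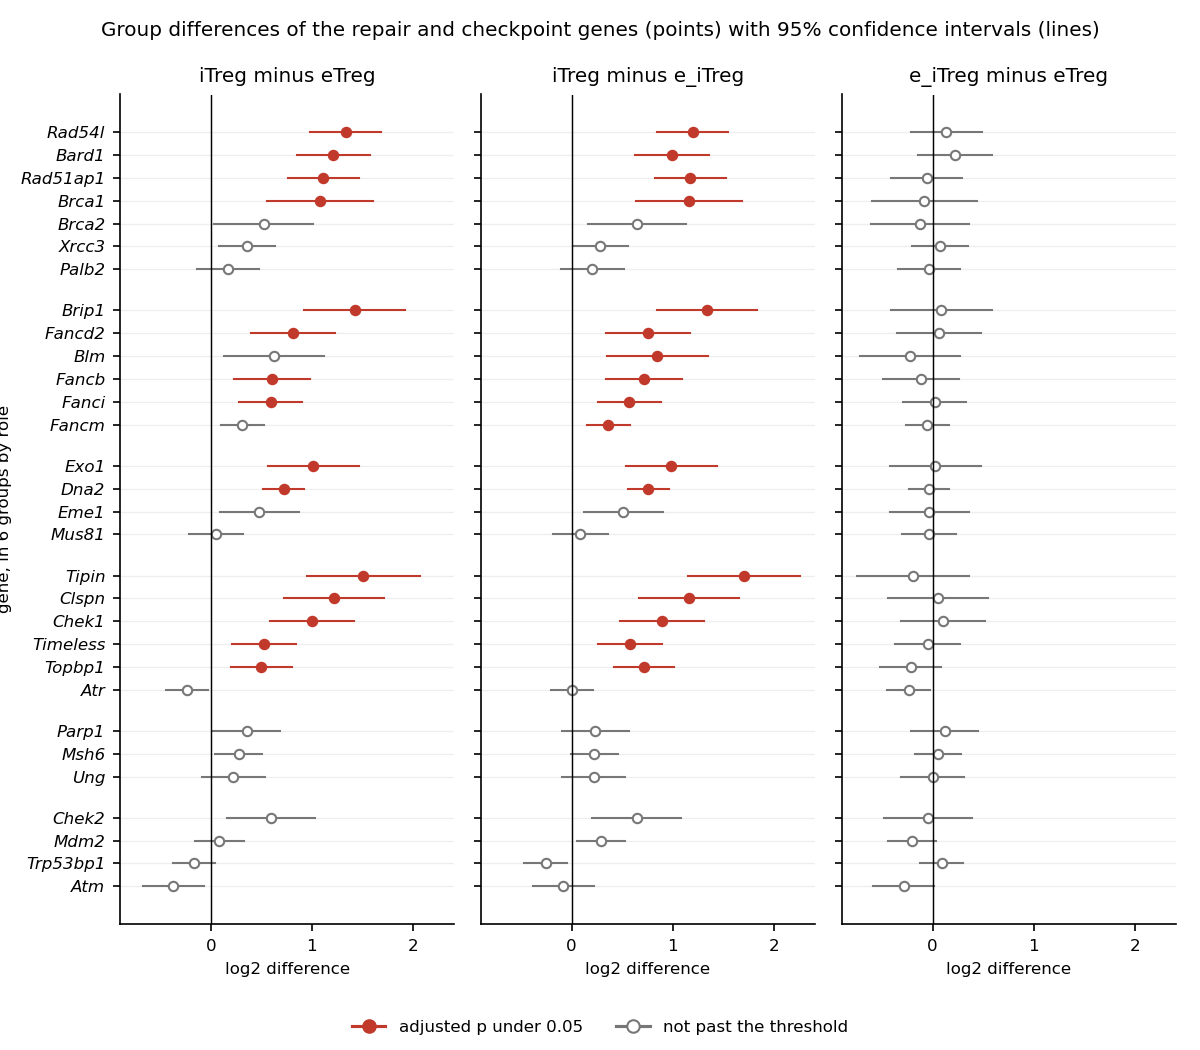
Log2 differences (points) with 95% confidence intervals (lines) for the 30 genes in 6 groups by role, from the limma fit over 12 arrays, for iTreg minus eTreg, iTreg minus e_iTreg and e_iTreg minus eTreg, with filled red points past an adjusted p of 0.05. Red points lie in the upper 4 groups in the first 2 panels, none appears in the ATM and p53 group at the bottom, and all points of the third panel lie within 0.3 of 0.

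The 4 genes of ATM and p53 signalling went in different directions and none passed. Atm, the kinase activated by double-strand breaks, gave 8.46, 8.18, 8.83 and 8.58 in the iTreg arrays, against 8.71, 8.54, 8.32 and 8.83 in the e_iTreg arrays and 8.79, 8.89, 8.78 and 9.06 in the eTreg arrays. Its difference was -0.37 ± 0.14 against eTreg (95% interval -0.67 to -0.07, limma adjusted p = 0.128) and -0.08 ± 0.14 against e_iTreg (-0.38 to 0.22, adjusted p = 0.742). Only iTreg replicate 3 reached the eTreg range, and the e_iTreg arrays spanned most of the iTreg range.

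Chek2, the effector kinase below Atm, was the gene of this class nearest to the threshold, with 6.66, 6.44, 7.29 and 6.91 in the iTreg arrays, against 5.82, 6.50, 6.58 and 5.84 in the e_iTreg arrays and 6.57, 6.08, 6.12 and 6.15 in the eTreg arrays. The difference was 0.59 ± 0.20 from eTreg (0.16 to 1.03, limma adjusted p = 0.086) and 0.64 ± 0.20 from e_iTreg (0.21 to 1.08, adjusted p = 0.0567). The groups overlapped in both comparisons. Chek2 passed against eTreg without iTreg replicate 2 (adjusted p = 0.0453), and against e_iTreg without iTreg replicate 2 (0.0310), e_iTreg replicate 2 (0.0378) or e_iTreg replicate 3 (0.0415), so its side of the threshold depends on single arrays.

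Mdm2 is the ubiquitin ligase that degrades p53 and is itself a p53 target gene. It gave 9.01, 8.65, 8.86 and 8.90 in the iTreg arrays, against 8.46, 8.45, 8.86 and 8.47 in the e_iTreg arrays and 8.73, 8.76, 8.85 and 8.73 in the eTreg arrays, with a difference of 0.09 ± 0.11 from eTreg (95% interval -0.15 to 0.32, limma adjusted p = 0.757) and 0.29 ± 0.11 from e_iTreg (0.06 to 0.53, adjusted p = 0.108). The e_iTreg group held its lowest 3 arrays, and without e_iTreg replicate 3 the difference of 0.39 passed (adjusted p = 0.0264). Trp53bp1, which limits resection and favours end joining, gave 8.38, 8.07, 8.36 and 8.44 in the iTreg arrays, against 8.63, 8.51, 8.62 and 8.50 in the e_iTreg arrays and 8.37, 8.48, 8.47 and 8.60 in the eTreg arrays. It was -0.17 ± 0.10 against eTreg (-0.38 to 0.04, limma adjusted p = 0.381) and -0.26 ± 0.10 against e_iTreg (-0.47 to -0.05, adjusted p = 0.114), with all 4 iTreg arrays below all 4 e_iTreg arrays, as in 9% of all probe sets. Atm, Mdm2 and Trp53bp1 all had intervals against eTreg that leave out a rise of 0.5, whereas the interval of Chek2 does not.

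In the mixed e_iTreg group the 30 genes lay at the level of eTreg within the error of 4 arrays each. Differences ran from -0.29 (Atm) to 0.22 (Bard1), and Atr was the only 1 of 30 genes below 0.05 before adjustment (limma adjusted p = 0.704). No gene had all 4 e_iTreg arrays above all 4 eTreg arrays (2.63% of probe sets did), and Atr alone had them all below. The intervals still allow moderate changes for the genes that varied most. For Tipin the interval in e_iTreg minus eTreg was -0.75 to 0.36, and for Dna2 it was -0.24 to 0.16.

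Other repair genes were counted from lists chosen by pathway. Of 25 further recombination and Fanconi genes measured, 9 rose and 0 fell in iTreg minus eTreg (36% called, median difference 0.25), and 9 rose in iTreg minus e_iTreg. Gen1, a nuclease that cuts Holliday junctions, rose by 1.44 (limma adjusted p = 0.00233), and Fignl1, a regulator of recombination, by 1.27 (adjusted p = 0.00834). The single-strand binding subunits Rpa3 and Rpa2 rose by 0.99 and 0.51 (limma adjusted p = 0.00482 and 0.0118).

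Of 12 further checkpoint genes, 4 rose and 1 fell against eTreg, and 8 rose and 0 fell against e_iTreg. Cdc25c and Cdc25a, phosphatases that activate cyclin-dependent kinases, rose by 1.67 and 0.76 against eTreg (limma adjusted p = 0.0112 and 0.00488), and Wee1, the kinase that opposes them, by 1.24 (adjusted p = 0.00387). The fourth was the cohesin subunit Smc1a with 0.39 (limma adjusted p = 0.0446). Donson, a replisome assembly factor, fell by 0.53 (limma adjusted p = 0.0114), and its difference from e_iTreg was -0.29 (adjusted p = 0.141). Phosphatases and their opposing kinase thus rose together.

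Break signalling on chromatin had 2 of 10 genes higher and 0 lower against eTreg. H2ax, the histone variant phosphorylated around breaks, averaged 12.18 ± 0.31 in iTreg, 10.33 ± 0.61 in e_iTreg and 10.12 ± 0.79 in eTreg (SD, n = 4 each), a difference of 2.06 (limma adjusted p = 0.00216), and the adaptor Paxip1 rose by 0.43 (adjusted p = 0.0149). End joining had 0 of 8 genes called against eTreg and 1 against e_iTreg, the Ku subunit Xrcc6 with 0.66 (limma adjusted p = 0.00227). In base excision repair 1 of 13 genes rose, the glycosylase Neil3, by 1.39 (limma adjusted p = 0.00276). Mismatch repair, beside Msh6, had 0 of 4 called in either iTreg comparison.

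Nucleotide excision repair had 0 of 16 genes higher and 2 lower against eTreg, the TFIIH kinase subunit Mnat1 (-0.37, limma adjusted p = 0.0418) and the nuclease Ercc4 (-0.32, adjusted p = 0.0436), and 1 higher against e_iTreg (Cetn2, 0.35, adjusted p = 0.0366). Among 6 polymerases of translesion synthesis, Polh rose by 1.06 (limma adjusted p = 0.00249), and Rev1 and Poli fell by 0.46 and 0.34 (adjusted p = 0.016 and 0.0406). Against e_iTreg only Polh of these 6 was called. The shares called were 12.5% and 50%, and 9.99% of all probe sets were called in either direction against eTreg.

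Of 21 target genes of p53, 10 had a difference above 0 in each iTreg comparison (median difference -0.05 against eTreg and -0.03 against e_iTreg). Against eTreg 0 were called higher and 4 lower (19%, beside 4.63% of all probe sets called lower). Against e_iTreg 0 were called higher and 5 lower (23.8%, beside 4.75%). The 4 were the kinase gene Plk2 (-0.92, limma adjusted p = 0.0121), Sesn1, a stress protein that restrains mTORC1 (-0.87, adjusted p = 0.00315), the antiproliferative gene Btg2 (-0.59, adjusted p = 0.0073) and Bbc3, which encodes the death protein PUMA (-0.59, adjusted p = 0.00618). Sesn1 averaged 8.25 ± 0.31 in iTreg, 8.99 ± 0.18 in e_iTreg and 9.12 ± 0.25 in eTreg (SD, n = 4 each). The death receptor gene Tnfrsf10b joined them against e_iTreg (-0.74, limma adjusted p = 0.0461). Cdkn1a, which encodes the cell cycle inhibitor p21, had 9.73, 8.65, 9.30 and 9.50 in the iTreg arrays, against 8.67, 9.17, 8.77 and 8.60 in the e_iTreg arrays and 8.93, 8.55, 8.76 and 7.97 in the eTreg arrays, and its difference from eTreg of 0.75 had an adjusted p of 0.0507 (limma). These genes also respond to signals other than p53, and the activity of p53 itself was not measured.

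**Figure D3:**
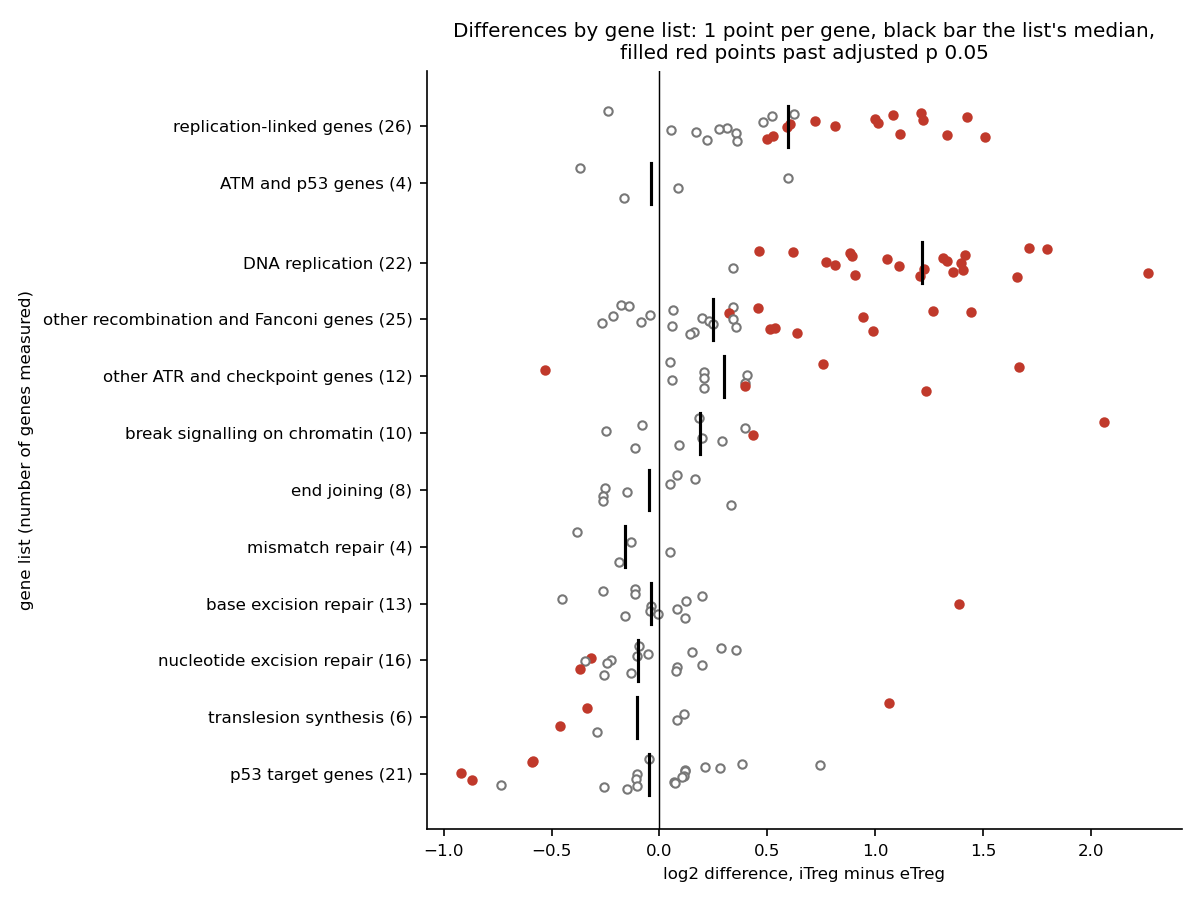
Log2 difference in iTreg minus eTreg for each measured gene (points) of the 26 replication-linked genes, the 4 ATM and p53 genes and 10 comparison lists, with the list median as a black bar and filled red points past adjusted p 0.05. The DNA replication list has a median of 1.22 and the replication-linked repair genes 0.60, the medians of end joining, excision repair, mismatch repair, translesion synthesis and p53 targets lie within 0.2 of 0, and the red p53 targets all lie below 0.

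Genes of cell division were higher in iTreg as well. In iTreg minus eTreg, 21 of 22 DNA replication genes and 19 of 19 mitosis genes rose, with median differences of 1.22 and 2.31, both above the median of 0.60 of the 26 replication-linked genes, of which 15 passed. The mitosis mean of each array was 9.92, 9.38, 9.78 and 8.85 in iTreg, 7.89, 8.49, 6.84 and 6.54 in e_iTreg, and 8.37, 7.22, 6.93 and 6.47 in eTreg. It thus varied by about 2 log2 units among the 8 arrays without DTx, which allows the repair genes to be set against it where no probe set passed between the groups. These arrays were pooled and not centred on their group means.

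Within those 8 arrays (4 e_iTreg and 4 eTreg), Brca1 followed the mitosis mean with Pearson r = 0.959 (exact permutation p = 0.000223, adjusted p = 0.0067 over the 30 relations computed) and Spearman rho = 0.952 (exact permutation p = 0.00114, adjusted p = 0.0171). Clspn gave r = 0.948, Brip1 0.919, Tipin 0.917 and Exo1 0.874. Across the 26 replication-linked genes r ran from -0.479 to 0.959 with a median of 0.740, 24 lay above 0, and 12 passed an adjusted permutation p of 0.05 (8 by rho). For the 4 ATM and p53 genes r ran from -0.384 to 0.407 with a median of -0.322, and 0 passed. Atr gave r = -0.048.

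The relation was weaker for most genes once the arrays at the high end were left out. Without e_iTreg replicate 2 and eTreg replicate 1, the 2 arrays farthest from the median, the median r of the replication-linked genes was 0.450, while Brca1 had r = 0.946 (exact permutation p = 0.00278, unadjusted), Clspn 0.870 and Exo1 0.855. The remaining 6 arrays have 720 orders, so no gene could pass alone after adjustment over 30 relations. Clspn had an unadjusted exact permutation p of 0.0139, and 0 genes passed. The mitosis mean also moved with the mean of the B cell markers in the same 8 arrays (r = 0.820, exact permutation p = 0.0205), and the repair genes were correlated with that mean too. Over the 26 replication-linked genes r with the B cell mean ran from -0.534 to 0.935 with a median of 0.613, and in 5 of them it was above r with the mitosis mean. Clspn had r = 0.935 with the B cell mean, Exo1 0.855, Mus81 0.852, Rad54l 0.843 and Brca1 0.824, and these 8 arrays give no separate value for either mean.

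**Figure D4:**
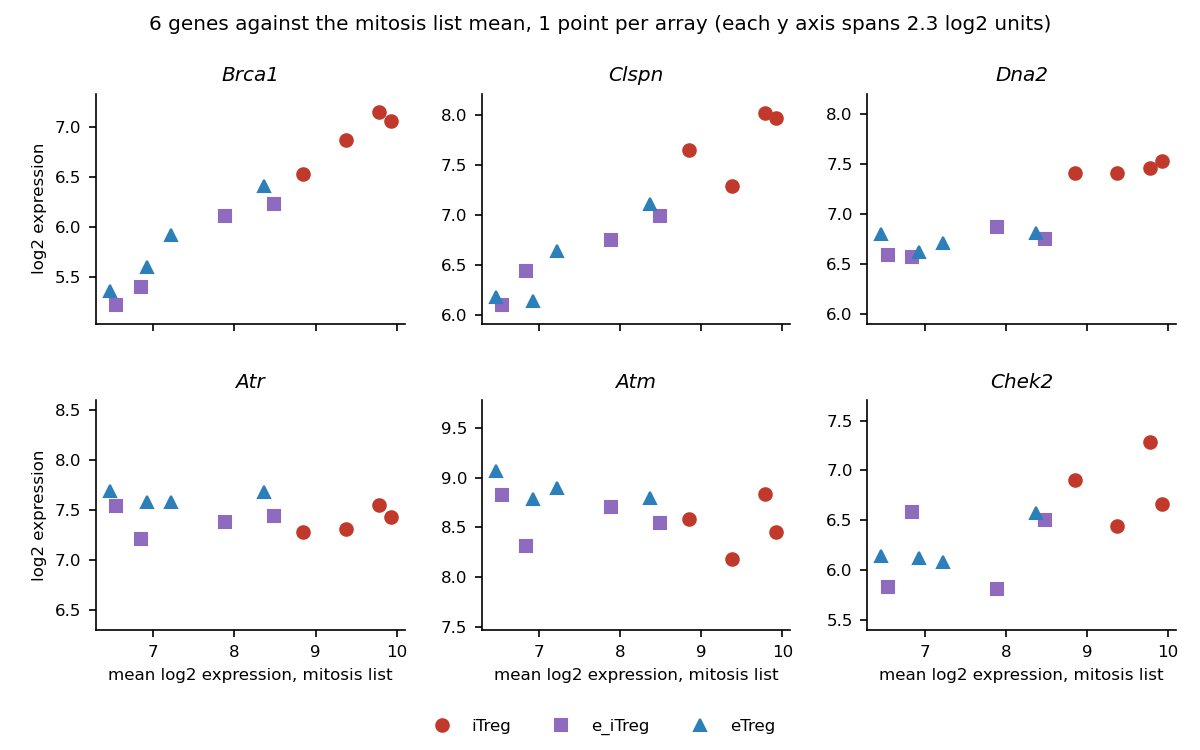
Log2 expression of 6 genes (y axes, each spanning 2.3 log2 units) against the mean log2 expression of the mitosis list (x axes), with 1 point per array for iTreg, e_iTreg and eTreg. Brca1 lies along 1 line through all 3 groups, Dna2 lies between 6.57 and 6.87 in the 8 e_iTreg and eTreg arrays and at 7.40 or above in the 4 iTreg arrays, and Atr and Atm do not climb with the mitosis mean.

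Among genes that rose, the relation over the 8 pooled arrays was uneven. Dna2 had r = 0.586 over the 8 arrays, but its values there covered only 6.57 to 6.87, and all 4 iTreg arrays stood at 7.40 or above. Bard1 had r = 0.542, Fanci 0.546 and Fancb 0.123. With the mitosis mean as a covariate in the fit, 0 of 30 genes passed in either iTreg comparison, and the median difference of the replication-linked genes was 0.16 against eTreg and 0.19 against e_iTreg. That fit also called only 11 and 36 of all probe sets, and the median SE of a difference was 0.201 and 0.190 in place of 0.121, and no iTreg array overlapped the other 8 in the mitosis mean. With the DNA replication mean as the covariate the medians were -0.10 and -0.08, and again 0 genes passed. In the mitosis fit the point estimates against eTreg differed widely between genes, with 0.75 ± 0.26 for Bard1 (limma adjusted p = 0.396) and -0.15 ± 0.15 for Brca1 (adjusted p = 0.814).

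Counts of called genes were taken again without the arrays that stood apart. Without the 3 arrays low in B cell markers, 5 of 30 genes passed against eTreg (Rad54l, Bard1, Rad51ap1, Dna2 and Tipin), with 2 eTreg arrays left, and 11 passed against e_iTreg, with 3 arrays left. Calls fell over the whole set of 23521 probe sets too, from 2349 to 400 against eTreg and from 2643 to 1356 against e_iTreg. The median difference of the replication-linked genes was then 0.55 and 0.66. Over all 30 genes it was 0.43 and 0.59, in place of 0.56 and 0.64, and their median SE was 0.194 and 0.171, in place of 0.159. The part of fewer arrays in the lower counts was not tested. With iTreg replicate 4 left out as well, 7 and 12 genes passed (484 and 1083 of all probe sets) and the medians were 0.59 and 0.73. Without e_iTreg replicate 4 alone, 14 and 13 genes passed (2242 and 1616 of all probe sets). Without iTreg replicate 4 alone, the array high in plasma cell markers, 15 and 16 genes passed (1900 and 2069 of all probe sets). Over the 12 fits that each left out 1 array, 10 of the 15 genes called against eTreg passed in every fit, and 11 of the 17 called against e_iTreg did. The other 5 against eTreg were Fancb, Fancd2, Fanci, Timeless and Topbp1, and their highest adjusted p-values were 0.111, 0.0550, 0.0658, 0.107 and 0.112. The other 6 against e_iTreg were Fancb, Fancd2, Fanci, Fancm, Blm and Timeless, with highest adjusted p-values of 0.0565, 0.0747, 0.0698, 0.0795, 0.0929 and 0.0695 (limma).

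Of the plasma cell list, all 8 genes had a difference above 0 in both iTreg comparisons, with medians of 0.71 against eTreg and 0.54 against e_iTreg. An unadjusted limma p under 0.05 was found for 6 of them against eTreg and for 2 against e_iTreg. In each comparison 1 of the 8 was called (12.5%, beside 9.99% and 11.2% of all probe sets). It was Prdm1 (1.04 against eTreg, limma adjusted p = 0.00364), which effector Treg also express. Jchain, which marks antibody-secreting cells, had 8.18, 6.67, 7.16 and 11.69 in the iTreg arrays, against 6.94, 6.55, 6.43 and 5.42 in the e_iTreg arrays and 6.68, 6.54, 4.84 and 5.16 in the eTreg arrays, and the difference from eTreg of 2.62 had a limma adjusted p of 0.0551. No B cell marker of 13 was called in either comparison. Of 6 germinal centre B cell genes, Mybl1 was higher against eTreg by 0.80 (limma adjusted p = 0.0376) and against e_iTreg by 0.82 (adjusted p = 0.0307), Fas was lower against eTreg (-0.56, adjusted p = 0.0479), and the list mean lay between 6.45 and 6.62 on all 12 arrays. With the B cell mean as a covariate 12 of 30 repair genes passed against eTreg and 18 against e_iTreg, and the medians of the replication-linked genes were 0.55 and 0.71. Of the monocyte, macrophage and dendritic cell list 1 of 12 rose against eTreg, Itgam, by 1.68 (limma adjusted p = 0.00254). Against e_iTreg 1 of these 12 genes was called higher and 1 lower. The part of plasma and myeloid cells in the repair gene differences was not tested beyond the counts without iTreg replicate 4.

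The 4 promoters printed next are those of 3 called genes and of the ATM-branch gene nearest to the threshold that hold a match to the core of the E2F motif, the element through which E2F factors drive S phase genes. They come from RefSeq on mouse build GRCm38.p6, from 250 bases before to 50 bases after the annotated start, and capitals mark the match. Bard1 lies on the minus strand at chr1:71102923-71103222, Clspn on the plus strand at chr4:126556730-126557029, Topbp1 on the plus strand at chr9:103305077-103305376 and Chek2 on the plus strand at chr5:110839733-110840032.
Bard1: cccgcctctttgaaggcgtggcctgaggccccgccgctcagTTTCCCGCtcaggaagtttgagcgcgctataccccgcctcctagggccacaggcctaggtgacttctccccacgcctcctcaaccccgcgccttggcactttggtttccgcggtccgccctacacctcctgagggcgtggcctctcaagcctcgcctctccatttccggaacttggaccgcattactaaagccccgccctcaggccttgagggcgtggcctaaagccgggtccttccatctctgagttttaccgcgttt
Clspn: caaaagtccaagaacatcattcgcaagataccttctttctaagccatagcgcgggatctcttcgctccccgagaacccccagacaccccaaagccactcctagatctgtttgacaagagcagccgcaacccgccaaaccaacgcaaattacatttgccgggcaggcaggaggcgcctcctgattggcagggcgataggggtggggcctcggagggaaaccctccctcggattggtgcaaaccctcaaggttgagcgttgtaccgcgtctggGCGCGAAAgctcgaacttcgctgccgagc
Topbp1: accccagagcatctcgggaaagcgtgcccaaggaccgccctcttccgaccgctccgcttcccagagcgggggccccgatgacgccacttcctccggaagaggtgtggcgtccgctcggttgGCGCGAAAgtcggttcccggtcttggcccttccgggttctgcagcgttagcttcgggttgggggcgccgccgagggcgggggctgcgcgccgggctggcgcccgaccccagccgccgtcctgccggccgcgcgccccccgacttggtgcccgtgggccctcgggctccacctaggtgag
Chek2: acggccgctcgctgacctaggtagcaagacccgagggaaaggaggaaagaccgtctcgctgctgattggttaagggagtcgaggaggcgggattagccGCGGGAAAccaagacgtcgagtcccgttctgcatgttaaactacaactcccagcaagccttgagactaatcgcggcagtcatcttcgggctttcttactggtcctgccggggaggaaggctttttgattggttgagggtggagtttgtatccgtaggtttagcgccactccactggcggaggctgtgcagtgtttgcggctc
The letters searched were TTTCCCGC, TTTCGCGC, TTTGCCGC and TTTGGCGC on either strand. Counted from the annotated start, the match begins at base -209 in Bard1, -129 in Topbp1, -152 in Chek2 and 22 in Clspn.

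Promoters were found for 29 of the 35 listed genes. The E2F core was present in 5 of 24 replication-linked genes (20.8%: Bard1, Brca2, Clspn, Topbp1 and Msh6) and in 1 of 5 ATM and p53 genes (20%: Chek2), against 2.32% of 27025 genes, and in 7 of 19 genes of the DNA replication list (36.8%). The CHR element of mitotic genes (TTTGAA or TTCGAA, both strands) was present in 3 of 24 replication-linked genes (12.5%), 0 of 5 ATM and p53 genes, 12 of 16 mitosis genes (75%) and 19.4% of all genes. CCAAT, on either strand, was present in 12 of 24 (50%), 4 of 5 (80%), 14 of 16 (87.5%) and 37.9% in the same order. Of the 5 genes with the E2F core, Bard1, Clspn and Topbp1 rose against eTreg, and Brca2 and Msh6 did not pass. Genes without it in this window, such as Rad54l, Brip1, Brca1, Chek1 and Dna2, rose too, so the match did not separate genes that rose from genes that did not pass.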

How the data were processed

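RNA of 12 Treg samples (2 ng each) was amplified and hybridised to 1-colour arrays. The authors made and deposited 1 log2 level per probe set and array, using oligo and RMA (background correction, normalization between arrays and summary over probes) per the submitters' processing notes, which name no version. There were 41345 probe sets, of which 23521 had exactly 1 gene symbol and 23328 were named through RefSeq (GRCm38.p6).

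From these values, 1 model with 3 group means was fitted to the 12 arrays in limma 3.58.1 (R 4.3.3, lmFit and eBayes, two-sided), with Benjamini-Hochberg adjustment over 23521 probe sets and a threshold of adjusted p 0.05. Script steps were tested on simulated data. The labels name biological replicates, so p-values reflect the spread between those replicates. The number of arrays limits the precision. Arrays were not treated as paired by replicate number. Same-number correlations of deviations ran from -0.152 to 0.121 in the iTreg comparisons. In e_iTreg minus eTreg they ran from 0.067 to 0.238, and replicates 1 and 4 each matched best with the same number. These values do not settle whether arrays were paired. Correlations used exact permutation over 40320 orders. The genes and all lists were chosen with earlier results of these data known. Genes of the other lists were named by smallest p (up to 4 per list). Cdkn1a, Tnfrsf10b, Smc1a, Cetn2, Prdm1, Jchain, Mybl1, Fas, Xist and Eif2s3y were added after their values were seen. Alternatives covered scaling, filters, error models, covariates and leaving out arrays.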

Additional observations from a re-analysis of the deposited data

Results flagged for a closer look

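In 4 of 90 groups of 4 values (30 genes in 3 groups), 1 array stood apart by Dixon's criterion. Chance alone would flag about 1 in 20 groups. In iTreg replicate 3 Timeless stood at 8.01, with its 3 fellow iTreg arrays at 7.37 to 7.40. Parp1 was 9.65 in the same array, against 9.15 to 9.21 in the others. In eTreg replicate 1 Chek2 stood at 6.57, with the remaining eTreg arrays at 6.09 to 6.15. In e_iTreg replicate 3 Mdm2 stood at 8.86, with the remaining e_iTreg arrays at 8.45 to 8.47, and without that array its difference in iTreg minus e_iTreg was 0.39 (limma adjusted p = 0.0264).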

How the results depend on the processing

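Counts of called genes kept to one direction: under all 32 alternatives of the fit, every replication-linked gene called was higher in iTreg, and 0 of 30 genes passed in e_iTreg minus eTreg. The number called in iTreg minus eTreg was 15 and ran from 11 to 16 when single arrays were left out. It was 5 without the 3 arrays low in B cell markers (400 of all probe sets called, in place of 2349). It was 7 without those and iTreg replicate 4 (484 of all probe sets), an alternative chosen after seeing the data. In iTreg minus e_iTreg it was 17, ran from 12 to 19 when single arrays were left out, and was 11 without the 3 arrays (1356 of all probe sets, in place of 2643). With the mitosis mean or the DNA replication mean as a covariate it was 0 in both comparisons. The replicate block left the counts at 15 and 17, and at 0 in e_iTreg minus eTreg.

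Of the 4 ATM and p53 genes, 0 passed in the fit reported. In iTreg minus eTreg 1 passed with array weights, at an adjusted p of 0.1 and without iTreg replicate 2, and single arrays left out gave 0 to 1. In iTreg minus e_iTreg 2 passed under quantile normalization (Chek2 higher, Trp53bp1 lower), 2 under median centring and 2 with array weights (Chek2 and Mdm2, both higher), 1 among rows above log2 6, 1 at an adjusted p of 0.1 and 1 with the B cell mean as a covariate, and single arrays left out gave 0 to 2. Of the 12 correlations past the threshold, 0 passed without the 2 arrays farthest from the median. With 720 orders of 6 arrays, a gene could pass over 30 relations only if other genes also had p-values near the smallest possible.

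Genes changed sign under a covariate without passing. In iTreg minus eTreg with the mitosis mean 8 of 30 did, and those called in the fit reported were Brca1 (-0.15) and Topbp1 (-0.029). With the DNA replication mean 16 did, the called ones being Brca1 (-0.42), Fancd2 (-0.039), Exo1 (-0.19), Chek1 (-0.10), Clspn (-0.093), Timeless (-0.14), Tipin (-0.10) and Topbp1 (-0.18). In iTreg minus e_iTreg 5 did with the mitosis mean, none of them called, and 13 with the DNA replication mean, the called ones being Brca1 (-0.32), Fancd2 (-0.088), Blm (-0.39), Exo1 (-0.20), Chek1 (-0.19), Clspn (-0.13) and Timeless (-0.078). Of the genes not called, Brca2 went lowest in all 4 of these fits (-0.49 and -0.27 against eTreg and e_iTreg with the mitosis mean, -0.77 and -0.63 with the DNA replication mean). The cause was not tested. The covariate for Xist, above or below the midpoint of its range, marks e_iTreg replicate 4 alone and so equals leaving that array out. With 4 arrays per group, differences near 0.5 passed or missed the threshold depending on single arrays.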

Other observations

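Within iTreg the replicates were ordered alike in most of the replication-linked genes. Replicates 1 and 3 both lay above replicates 2 and 4 in 20 of 26 of these genes (76.9%) and in 0 of the 4 ATM and p53 genes, against 17.3% of all probe sets with 1 symbol, a pattern noticed in these values and not tested. The means of the 26 genes were 7.83, 7.52, 7.99 and 7.53 in iTreg, 7.08, 7.25, 6.89 and 6.82 in e_iTreg, and 7.31, 7.02, 6.96 and 6.83 in eTreg. The mitosis means of iTreg replicates 1 and 3, 9.92 and 9.78, were also the highest of that group. Mus81, which did not differ past the threshold between groups, had r = 0.831 with the mitosis mean over the 8 arrays without DTx and 0.815 over the 6 left without the farthest 2.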
